A study of Mus musculus with 8 samples.

Results

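The elastic fibre and microfibril genes are a set of 10 genes named by symbol, for elastin (Eln), fibrillin (Fbn1), the fibulins (Fbln1, Fbln2, Fbln5, Efemp1 and Efemp2) and microfibril-associated proteins (Mfap2, Mfap4 and Mfap5). All 10 were found among the 18824 genes of the deposited count table, and the rule that picks them reads symbols, not measured values. The series asks about the role of Slc15a3, an endolysosomal carrier of histidine and short peptides, in pulmonary fibrosis. Bulk RNA of whole lung was sequenced from 4 libraries labelled as Slc15a3-/- mice given bleomycin (KO_BLM) and 4 labelled as wild-type mice given bleomycin (WT_BLM). Mice of both groups were 8 weeks old, received 2 mg/kg of bleomycin, a drug that scars rodent lung, by the trachea in 50 µl of saline, and were killed on day 21. Lungs given saline alone were not analysed here, and each difference compares the genotypes after bleomycin. The labels give neither the design of the deleted allele nor the mouse strain, and do not say that each library came from its own animal, so p-values measure the spread between these libraries, which may be partly technical.

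Elastic fibres give the lung its recoil. Tropoelastin, the product of Eln, is laid onto a scaffold of fibrillin microfibrils, fibulins bring it together with the lysyl oxidases that cross-link it, and microfibril-associated glycoproteins bind the fibrillin. In the lung, fibroblasts, smooth muscle cells, mesothelial and endothelial cells make these proteins, mostly while the organ grows, and elastin is made again in fibrotic scars.

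The deleted gene checked the labels. Slc15a3 had 8, 5, 18 and 15 counts in KO_BLM replicates 1 to 4, against 935, 1124, 974 and 841 counts in WT_BLM replicates 1 to 4, so 1.19% of the wild-type level was left. Exons of Slc15a3 share 1541 bases with Tmem132a on the opposite strand, which had 4344 counts over all libraries, beside 3920 for Slc15a3. Total counts were 17627999 to 18471445 per KO_BLM library and 18878835 to 20180831 per WT_BLM library. The lung label was met by the marker genes of surfactant-producing type 2 alveolar cells, whose summed level was 23880 to 36600 CPM (counts scaled to a common library total with TMM factors) in KO_BLM and 9006 to 13120 CPM in WT_BLM.

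The set did not move as a block. Elastin, fibrillin and a part of the fibulins fell in the knockout lungs, while Fbln1, Efemp1 and Mfap4 rose. Of the 10 genes, 6 were lower and 3 higher in KO_BLM at an edgeR adjusted p below 0.05, and Mfap2 was not called. Among all 14746 genes tested, 20.8% were lower and 20.7% higher by the same rule, together 41.5%. Knockout and wild-type libraries were fully separated for 9 of the 10 genes, against 40.9% of all tested genes. Calls with a change of 1 or more on the log2 scale, in either direction, were made for 5 of the 10 and for 12.1% of all tested genes. The median log2 fold change was −0.56 over the 10 genes and 0.00 over all tested genes, a median that hides the opposite directions.

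**Figure D1:**
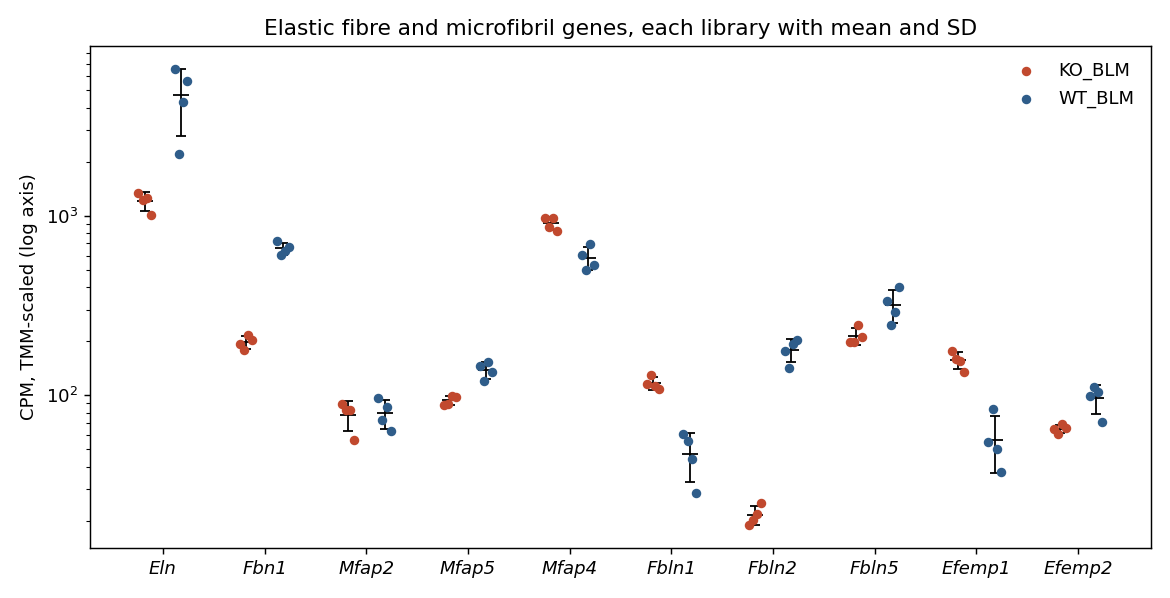
CPM (TMM-scaled, log axis) of each of the 10 genes in every library, with KO_BLM in red and WT_BLM in blue, points for libraries, and black marks for the mean and SD (n = 4). Eln in WT_BLM runs from 2194 to 6566 CPM above all KO_BLM values, and Mfap2 is the gene whose groups overlap.

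Eln encodes elastin, the elastic core of the fibre. The gene lies on the minus strand of chromosome 5, from 134702593 to 134747323 (GRCm38, the assembly of mm10, GENCODE M21). Its level was 1346, 1221, 1255 and 1004 CPM in KO_BLM replicates 1 to 4, against 6566, 2194, 4311 and 5652 CPM in WT_BLM replicates 1 to 4. All knockout libraries lay below all wild-type libraries, and replicate 2 was the lowest of the wild-type ones. The mean was 1206 ± 145 CPM in KO_BLM and 4681 ± 1899 CPM in WT_BLM (SD, n = 4 each), 3.88-fold lower (log2 change −1.96 with SE 0.29, adjusted p = 0.000804 in edgeR). With each library left out in turn, the log2 change ran from −2.19 without WT_BLM replicate 2 (adjusted p = 3.7e-05) to −1.75 without WT_BLM replicate 1 (adjusted p = 0.00237), and the adjusted p was at most 0.00394. By mean CPM over both groups, Eln ranked 10th among the genes tested, so it was the most abundant of the set by read count. Its spread differed between the groups, with a coefficient of variation of 12.0% in KO_BLM and 40.6% in WT_BLM.

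Fbn1 encodes fibrillin-1, the backbone of the microfibril (chromosome 2, 125300594 to 125507993, minus strand). Its exons share 2442 bases with the opposite-strand gene Gm9913, and those of Eln 267 bases with Gm30003, neither of which has a row in the count table. Fbn1 had 193, 178, 215 and 203 CPM in KO_BLM replicates 1 to 4, against 724, 606, 635 and 665 CPM in WT_BLM replicates 1 to 4. The libraries of a group stood close together, and the gap between the groups was many times their spread. Fbn1 fell to 197 ± 15.7 CPM in KO_BLM, against 657 ± 50.6 CPM in WT_BLM (SD, n = 4 each), 3.33-fold lower (log2 change −1.74 with SE 0.09, adjusted p = 2.94e-06 in edgeR).

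The microfibril-associated genes went 3 ways. Mfap2 and Mfap5 encode small glycoproteins that bind fibrillin, and Mfap4 encodes a fibrinogen-related protein that binds elastin and collagen. Mfap5 (chromosome 6, 122505845 to 122529290, plus strand) was at 88.3, 89.5, 98.8 and 97.5 CPM in KO_BLM replicates 1 to 4 and at 145, 120, 153 and 135 CPM in WT_BLM replicates 1 to 4. The groups did not overlap, and Mfap5 was 1.48-fold lower in KO_BLM (log2 change −0.56 with SE 0.09, adjusted p = 0.00144 in edgeR).

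Mfap2 (chromosome 4, 141010418 to 141015984, plus strand) had 90.0, 82.3, 82.6 and 56.6 CPM in KO_BLM replicates 1 to 4, against 96.5, 73.0, 85.5 and 63.1 CPM in WT_BLM replicates 1 to 4. The groups overlapped throughout, and replicate 4 was lowest in each. The log2 change of −0.03 (SE 0.16, adjusted p = 0.897 in edgeR) changed sign in several alternative settings, such as scaling by library totals alone (0.04996), so no direction is given.

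Mfap4 (chromosome 11, 61485431 to 61488900, plus strand) had 966, 863, 966 and 825 CPM in KO_BLM replicates 1 to 4, against 606, 498, 693 and 531 CPM in WT_BLM replicates 1 to 4. Every knockout library was above every wild-type library. The gene rose to 905 ± 72.2 CPM in KO_BLM, against 582 ± 86.9 CPM in WT_BLM (SD, n = 4 each), 1.56-fold higher (log2 change 0.64 with SE 0.12, adjusted p = 0.00262 in edgeR). The annotated exons of Mfap4 share 89 bases with Mapk7 on the opposite strand. How strand was handled in counting is not given in the sources used here, and reads in that stretch could belong to either gene.

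The fibulins split. They are secreted glycoproteins built of calcium-binding EGF-like modules and a shared C-terminal module, and they link elastin, microfibrils and basement membranes. Fbln2, Fbln5 and Efemp2 fell, and Fbln1 and Efemp1 rose.

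Fbln2 (chromosome 6, 91212455 to 91272540, plus strand), whose protein sits where elastin meets the microfibril, changed most of the 10 genes. It had 19.1, 20.3, 21.9 and 25.0 CPM in KO_BLM replicates 1 to 4, against 176, 143, 194 and 203 CPM in WT_BLM replicates 1 to 4. The highest knockout library was far below the lowest wild-type library. The fall was 8.29-fold (log2 change −3.05 with SE 0.14, adjusted p = 1.35e-06 in edgeR), and Fbln2 ranked 6th by p among all genes tested.

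Fbln5 (chromosome 12, 101746565 to 101819055, minus strand) encodes a fibulin that binds tropoelastin and integrins and is required for normal elastic fibres in mice. It had 197, 197, 246 and 210 CPM in KO_BLM replicates 1 to 4, against 333, 247, 292 and 402 CPM in WT_BLM replicates 1 to 4. KO_BLM replicate 3 came close to WT_BLM replicate 2 without overlap. Fbln5 was lower in KO_BLM (log2 change −0.58 with SE 0.15, adjusted p = 0.0107 in edgeR).

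Efemp2 (chromosome 19, 5473954 to 5482517, plus strand) encodes a fibulin that binds lysyl oxidase and is required for elastic fibre assembly in mice. It had 64.7, 61.0, 69.5 and 65.4 CPM in KO_BLM replicates 1 to 4, against 98.4, 111, 104 and 70.6 CPM in WT_BLM replicates 1 to 4. WT_BLM replicate 4 lay just above the knockout libraries and the other wild-type libraries lay well above them. Efemp2 was 1.47-fold lower in KO_BLM (log2 change −0.56 with SE 0.13, adjusted p = 0.00762 in edgeR), and missed the threshold when limma was run on log2(FPKM + 1) with no filter on low genes (adjusted p = 0.054). Its exons share 173 bases with Mus81 on the opposite strand, so its count carries the same kind of doubt as that of Mfap4. Summed over all libraries, Mus81 had 3721 counts beside 12116 for Efemp2, and Mapk7 6667 beside 111120 for Mfap4.

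Fbln1 (chromosome 15, 85205949 to 85286535, plus strand) encodes a fibulin of the elastic fibre core and of basement membranes. It had 115, 130, 113 and 108 CPM in KO_BLM replicates 1 to 4, against 60.5, 55.6, 44.4 and 28.4 CPM in WT_BLM replicates 1 to 4. All knockout libraries were above all wild-type libraries, and WT_BLM replicate 4 was the lowest. The rise was 2.46-fold (log2 change 1.30 with SE 0.20, adjusted p = 0.00100 in edgeR).

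Efemp1 (chromosome 11, 28853204 to 28926743, plus strand) encodes a fibulin that binds the protease inhibitor TIMP3 and maintains elastic tissue of fascia in mice. It had 177, 160, 155 and 136 CPM in KO_BLM replicates 1 to 4, against 55.2, 83.8, 50.5 and 37.3 CPM in WT_BLM replicates 1 to 4. The groups did not overlap, with WT_BLM replicate 2 the highest and replicate 4 the lowest of the wild-type libraries. Efemp1 was 2.77-fold higher in KO_BLM (log2 change 1.47 with SE 0.21, adjusted p = 0.000728 in edgeR).

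**Figure D2:**
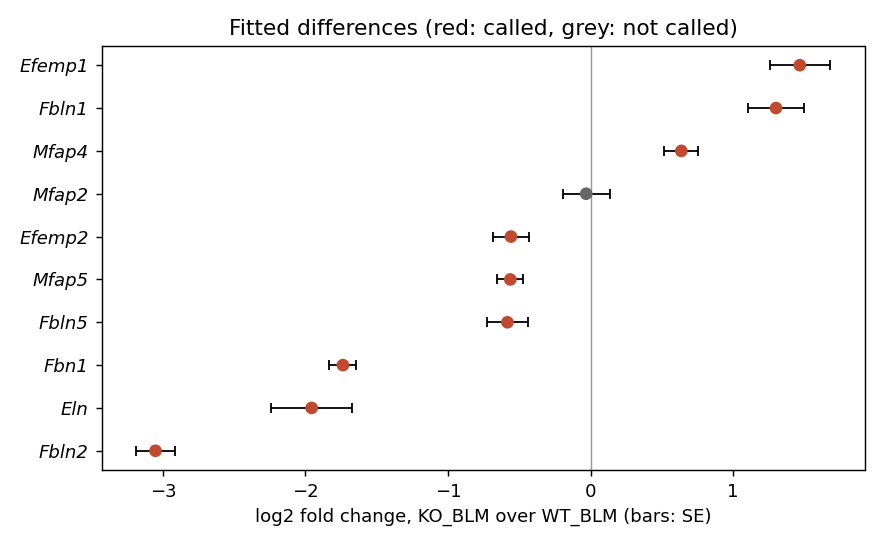
Log2 fold change of KO_BLM over WT_BLM for each of the 10 genes from the edgeR fit over all genes (points, with SE as bars, n = 4 libraries a group), sorted, with called genes in red and the gene not called in grey. The fitted changes run from −3.05 for Fbln2 to 1.47 for Efemp1, with Mfap2 at −0.03.

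The promoters of the fibulin genes are shown because their transcripts moved in opposite directions. RefSeq windows on GRCm38.p6 were available for 7 of the 10 genes. The windows printed are the 250 bases before a transcript start, 1 a gene, for the 4 fibulin genes with a window that shares at most 1 base with annotated exons. Fbln5 (chr12:101819120-101819369, minus strand) and Efemp2 (chr19:5473696-5473945, plus strand) fell, and Fbln1 (chr15:85205699-85205948, plus strand) and Efemp1 (chr11:28852955-28853204, plus strand) rose. Each is printed 5′ to 3′ along the gene's strand, and capitals mark matches on either strand of the GC box GGGCGG, the SMAD box CAGAC, the AP-1 site TGANTCA and the TEAD site GGAATG.
Fbln5: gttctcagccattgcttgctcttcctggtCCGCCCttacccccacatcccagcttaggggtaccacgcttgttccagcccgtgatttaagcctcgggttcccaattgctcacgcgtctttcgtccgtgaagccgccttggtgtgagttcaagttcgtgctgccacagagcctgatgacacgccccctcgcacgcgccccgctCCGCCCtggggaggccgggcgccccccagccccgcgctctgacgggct
Efemp2: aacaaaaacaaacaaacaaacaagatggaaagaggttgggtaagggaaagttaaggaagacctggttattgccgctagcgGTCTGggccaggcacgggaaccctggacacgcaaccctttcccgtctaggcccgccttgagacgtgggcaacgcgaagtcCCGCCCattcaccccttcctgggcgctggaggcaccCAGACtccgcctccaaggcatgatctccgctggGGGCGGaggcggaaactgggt
Fbln1: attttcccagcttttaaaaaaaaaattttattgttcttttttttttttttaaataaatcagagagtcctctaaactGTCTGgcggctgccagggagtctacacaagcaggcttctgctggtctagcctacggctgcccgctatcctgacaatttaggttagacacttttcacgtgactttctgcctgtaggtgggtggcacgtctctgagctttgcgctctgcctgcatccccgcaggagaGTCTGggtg
Efemp1: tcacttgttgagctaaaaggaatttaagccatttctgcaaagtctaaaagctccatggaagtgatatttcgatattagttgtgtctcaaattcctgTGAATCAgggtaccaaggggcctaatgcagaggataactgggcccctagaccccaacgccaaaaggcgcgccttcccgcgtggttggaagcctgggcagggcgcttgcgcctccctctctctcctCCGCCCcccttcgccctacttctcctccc

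No marked motifs overlap each other in these windows. As printed, Fbln5 held 2 GC boxes, Efemp2 2 GC boxes and 2 SMAD boxes, Fbln1 2 SMAD boxes, and Efemp1 1 GC box and 1 AP-1 site. Another Fbln5 window (chr12:101818485-101818734), which also shares 1 base with exons, held 2 SMAD boxes and 0 GC boxes. Another Fbln1 window, which shares 59 bases with exons, held 2 SMAD boxes and 1 GC box. The boxes listed thus depend on the window printed. Among the fibulin genes printed, they do not separate those that fell from those that rose. Fbln2, which fell most, is not among them, since its window shares 250 bases with exons. That window held 1 GC box and 0 SMAD boxes. Over all 12 windows of the 7 genes, the GC box was found in 9, the SMAD box in 5, the AP-1 site in 1 and the TEAD site in 1. Among 32851 promoter windows of the same length, 32.7% held the GC box, 42.2% the SMAD box, 6.75% the AP-1 site and 12.6% the TEAD site. Windows of 1 gene can overlap, and a match of letters is not a bound site.

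Ratios between related members were compared within libraries. The pairs were chosen with earlier results of these data known, so their p-values describe how the groups separate and are no independent support. Ratios of FPKM (counts scaled by gene length and library total, as deposited) within a library do not depend on how libraries are scaled. They were compared with an exact two-sided permutation test (70 ways to split 8 libraries into equal groups, so 0.0286 is the smallest possible p), with Benjamini-Hochberg adjustment over the 5 pairs compared. The ratio of Fbln5 to Fbln2 was 8.13, 7.64, 8.78 and 6.58 in KO_BLM replicates 1 to 4, against 1.48, 1.36, 1.18 and 1.55 in WT_BLM replicates 1 to 4. It was thus 5.58-fold higher in the knockout (log2 difference 2.48, SE 0.12, exact p = 0.0286, adjusted p = 0.0476). Both genes fell, and Fbln2 by more.

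Efemp2 to Efemp1 was 0.318, 0.332, 0.390 and 0.420 in KO_BLM replicates 1 to 4, against 1.55, 1.15, 1.79 and 1.65 in WT_BLM replicates 1 to 4. With the authors' gene lengths the ratio was below 1 in all knockout libraries and above 1 in all wild-type libraries (log2 difference −2.06, SE 0.17, exact p = 0.0286, adjusted p = 0.0476). Which gene led in WT_BLM depends on the length used. With the union of annotated exons as length, an alternative chosen after seeing the data, the ratio was 0.196 to 0.260 in KO_BLM and 0.960, 0.712, 1.10 and 1.02 in WT_BLM replicates 1 to 4, while the difference between the groups is the same. Mfap4 to Mfap2 averaged 10.2 ± 1.62 in KO_BLM and 6.39 ± 0.877 in WT_BLM (SD, n = 4 each), with no overlap between the groups (log2 difference 0.68, SE 0.15, exact p = 0.0286, adjusted p = 0.0476). Mfap5 to Mfap2 averaged 1.16 ± 0.307 in KO_BLM and 1.65 ± 0.253 in WT_BLM (SD, n = 4 each) and did not pass the test (log2 difference −0.53, SE 0.21, exact p = 0.0857, adjusted p = 0.107). Eln to Fbn1 was 17.8, 17.5, 14.8 and 12.6 in KO_BLM replicates 1 to 4, against 23.1, 9.23, 17.3 and 21.7 in WT_BLM replicates 1 to 4. The knockout values lay inside the wild-type range (log2 difference −0.11, SE 0.32, exact p = 0.771, adjusted p = 0.771).

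**Figure D3:**
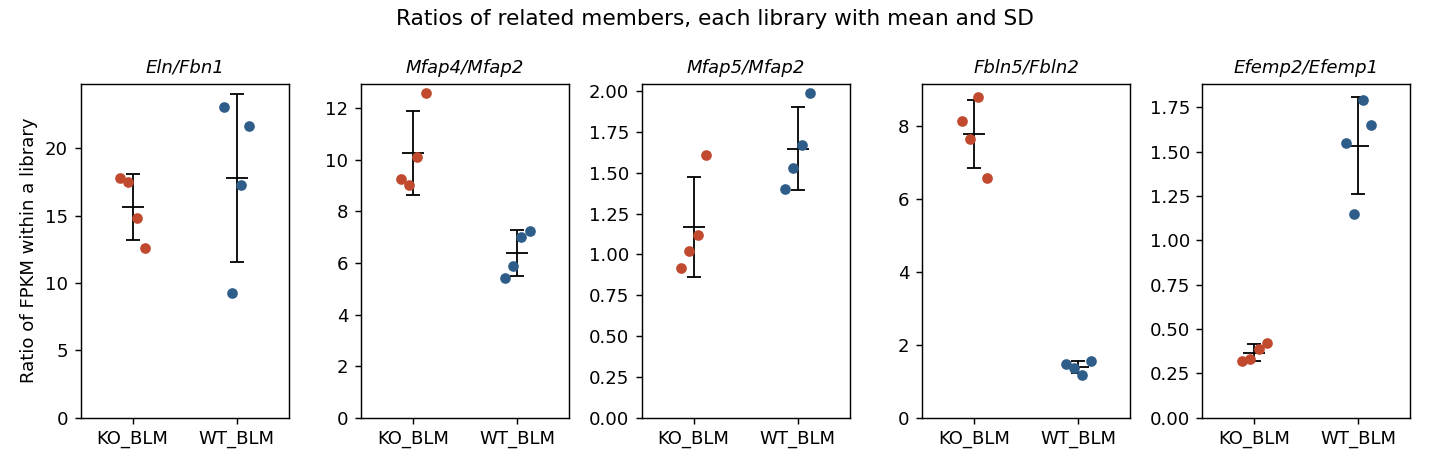
Ratio of FPKM of related genes within each library (vertical axes start at 0), with KO_BLM in red at the left and WT_BLM in blue at the right of each panel, points for libraries and black marks for the mean and SD (n = 4). Fbln5/Fbln2, Efemp2/Efemp1 and Mfap4/Mfap2 separate the groups, while Eln/Fbn1 spans 12.6 to 17.8 in KO_BLM and 9.23 to 23.1 in WT_BLM.

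Per length, elastin gave way to Mfap4 as the leading transcript. In FPKM, Mfap4 stood first in KO_BLM at 572 ± 39.2 FPKM and Eln second at 312 ± 30.8 FPKM, against Eln first at 1134 ± 441 FPKM and Mfap4 second at 347 ± 54.9 FPKM in WT_BLM (SD, n = 4 each). In KO_BLM, Efemp1, Mfap5, Mfap2, Fbln5, Fbln1, Efemp2, Fbn1 and Fbln2 followed, from 73.7 ± 6.22 FPKM for Efemp1 to 4.49 ± 0.662 FPKM for Fbln2. In WT_BLM the order below Mfap4 was Mfap5, Fbn1, Mfap2, Fbln5, Efemp2, Fbln2, Efemp1 and Fbln1, from 89.0 ± 9.39 FPKM for Mfap5 to 11.9 ± 3.71 FPKM for Fbln1. Fbln2 was last in KO_BLM and Fbln1 last in WT_BLM. Neighbours in the order overlapped in their ranges between Efemp1, Mfap5 and Mfap2 and between Fbln5 and Fbln1 in KO_BLM, and from Fbn1 down to Efemp1 in WT_BLM.

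As a share of the summed FPKM of the 10 genes, Eln made up 27.2%, 27.0%, 25.8% and 24.3% in KO_BLM replicates 1 to 4, against 68.0%, 45.5%, 57.2% and 67.6% in WT_BLM replicates 1 to 4. Mfap4 made up 47.8% ± 1.0 in KO_BLM and 19.6% ± 4.98 in WT_BLM, and Efemp1 6.17% ± 0.351 in KO_BLM and 1.55% ± 1.08 in WT_BLM (SD, n = 4 each). Shares of one whole are tied to each other, so part of the gain of one gene is the loss of another. The summed FPKM was 1195 ± 77.8 in KO_BLM and 1846 ± 465 in WT_BLM, and without Eln 883 ± 51.7 in KO_BLM and 712 ± 75.7 in WT_BLM (SD, n = 4 each). Mfap4 carried the higher sum of the other 9 genes. Without Eln and Mfap4, a sum added after seeing the data, the remaining 8 genes summed to 312 ± 13.4 FPKM in KO_BLM and 365 ± 24.8 FPKM in WT_BLM (SD, n = 4 each). WT_BLM replicate 2, with a sum of 1212 FPKM, fell among the KO_BLM libraries, which ran from 1105 to 1272 FPKM.

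**Figure D4:**
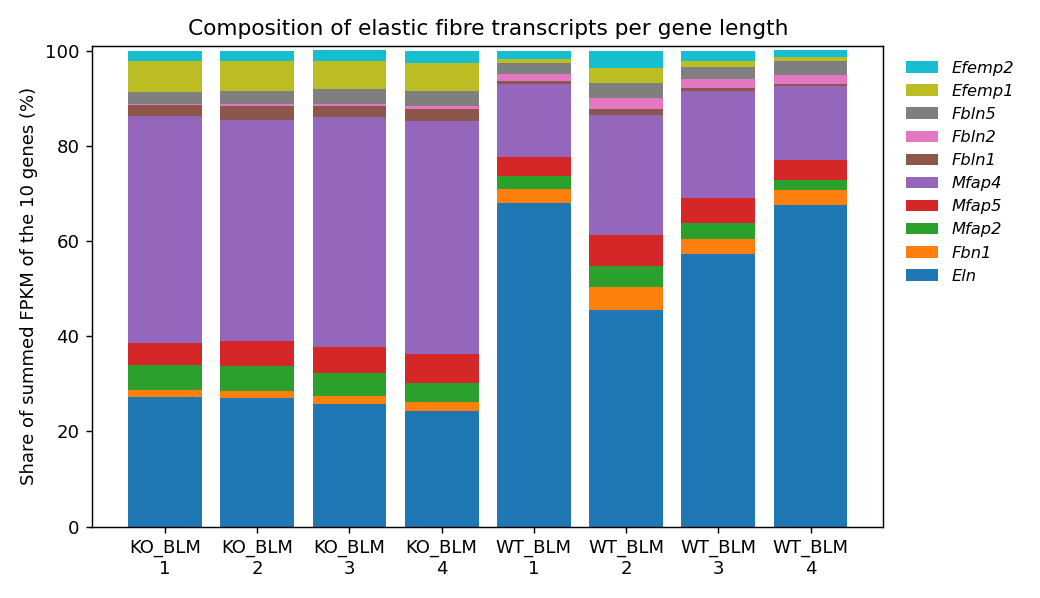
Share of each gene in the summed FPKM of the 10 genes (stacked bars, %), with KO_BLM replicates 1 to 4 at the left and WT_BLM replicates 1 to 4 at the right. Eln, at the bottom, averages 26.1% in KO_BLM and 59.6% in WT_BLM, and Mfap4 averages 47.8% in KO_BLM and 19.6% in WT_BLM.

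The libraries of a group did not rank alike over the genes. Among the wild-type libraries, replicate 2 was lowest for 6 of the 10 genes (Eln, Fbn1, Fbln2, Fbln5, Mfap4 and Mfap5) and highest for Efemp1 and Efemp2. WT_BLM replicate 4 was lowest for the other 4 and highest for Fbln2 and Fbln5. Among the knockout libraries, replicate 4 was lowest for 5 genes (Eln, Fbln1, Efemp1, Mfap2 and Mfap4) and highest for Fbln2, and replicate 3 was highest for 4. The highest library exceeded the lowest of its group by 1.12-fold for Mfap5 to 1.59-fold for Mfap2 in KO_BLM, and by 1.20-fold for Fbn1 to 2.99-fold for Eln in WT_BLM.

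Likeness to other genes was measured as the root-mean-square distance between log2 CPM profiles, each centred on its mean over the 8 libraries, so a distance of 0 is the same profile. Nearest to Fbn1 were Itga5, an integrin subunit of the fibronectin receptor (distance 0.0753), Fkbp10, a collagen chaperone (0.104), and Mark1 (0.108). Nearest to Fbln2 were Cthrc1, a secreted marker of fibroblasts in fibrotic lung (0.120), P4ha3, a collagen prolyl hydroxylase subunit (0.126), and Gcnt4 (0.143). Nearest to Mfap4 were Bbs2, P4htm and Gstz1 (0.0819 to 0.0995), and to Efemp1 Gata3, Tafa1 and Adrb1 (0.0868 to 0.148). For Fbln1 the nearest were Timd4, Upp2 and Gprasp2 (0.112 to 0.142), and for Mfap2 Adra1d, Evpl and Art4 (0.0834 to 0.108). For Fbln5 the nearest were Scyl3, Ostm1 and Malsu1 (0.0585 to 0.0643), and for Efemp2 Rcn3, Adgrg3 and Cdc45 (0.0600 to 0.0677). For Mfap5 they were Dap, Cplx2 and Aifm2 (0.0541 to 0.0659). Nearest to Eln were Cdh6 at 0.212, Coro6 at 0.268 and Dcst2 at 0.278. The distance is not scaled by spread. Genes with small changes therefore lie near many others, and widely spread genes such as Eln lie far, by the measure itself. Within the set the closest genes were Fbln5 and Mfap5 (0.181), and the rising fibulins Fbln1 and Efemp1 stood at 0.225. These distances describe 8 libraries in which a large share of genes differ between the groups.

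Other genes that build, anchor, cross-link or degrade elastic fibres were mostly lower in KO_BLM. Of 58 such genes outside the set, in 6 lists by role, 54 were tested, 32 (59.3%) were lower and 4 higher, against 20.8% lower and 20.7% higher among all tested genes, and the median log2 fold change was −0.68. All cross-linking genes but the copper transporter Atp7a fell, 7 of 8. Lox, the lysyl oxidase that cross-links elastin and collagen, averaged 142 ± 12.5 CPM in KO_BLM and 733 ± 258 CPM in WT_BLM (SD, n = 4 each; log2 change −2.37 with SE 0.22, adjusted p = 7.46e-05 in edgeR). Loxl1, the family member tied most closely to elastin, fell less (log2 fold change −0.56, SE 0.09, adjusted p = 0.00168), and Bmp1, a protease that activates pro-lysyl oxidase, had −0.83 (SE 0.10, adjusted p = 0.000209).

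Of 9 tested genes of other microfibril, fibulin and elastin-associated proteins, 6 were lower and 0 higher. Emilin1, at the elastin-microfibril interface, was at 112 ± 3.32 CPM in KO_BLM and 211 ± 45.9 CPM in WT_BLM (SD, n = 4 each; log2 fold change −0.92, edgeR adjusted p = 0.00132). Fbn2, the fibrillin of developing tissue, was at 0.651 ± 0.306 CPM in KO_BLM and 7.83 ± 1.32 CPM in WT_BLM (SD, n = 4 each; log2 change −3.57 with SE 0.31, adjusted p = 4.71e-05 in edgeR). Hmcn1 (log2 fold change −0.13, adjusted p = 0.492) and Mmrn2 (0.04, adjusted p = 0.886) were not called.

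Genes of the Ltbp family, named for the binding of latent TGF-beta, and of microfibril-bound ADAMTS(L) proteins went both ways. Of these 12 genes 4 were lower and 3 higher, with a median log2 fold change of −0.06. Ltbp2 fell (log2 change −2.01 with SE 0.12, adjusted p = 4.87e-06 in edgeR), as did Ltbp1, Thsd4 and Adamts6. Ltbp4, which takes part in elastic fibre assembly in lung, rose (0.75, SE 0.20, adjusted p = 0.0154), as did Adamts10 (0.69, SE 0.16, adjusted p = 0.00909) and Adamts17 (2.67, SE 0.23, adjusted p = 4.10e-05), proteases that bind fibrillin. Ltbp3 had −0.20 (SE 0.08, adjusted p = 0.0837) and was not called.

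Of 8 tested elastin-degrading proteases 3 were lower and 0 higher, so 37.5% were called, no more than the 41.5% of all tested genes. Mmp2 (log2 fold change −0.91, edgeR adjusted p = 0.00613), Ctsl (−1.09, adjusted p = 0.00253) and Ctsk (−1.66, adjusted p = 0.0114) fell. Ctss, which was uneven at 571 ± 347 CPM in KO_BLM and 1034 ± 91.4 CPM in WT_BLM (SD, n = 4 each), was not called (adjusted p = 0.103), and neither was the macrophage elastase Mmp12 (log2 fold change −1.34, SE 0.93, adjusted p = 0.274). Of 7 protease inhibitors 4 were lower and 0 higher. Timp1, an inhibitor of matrix metalloproteinases, fell most (log2 change −3.54, SE 0.36, adjusted p = 0.000112 in edgeR), with 30.0 ± 15.04 CPM in KO_BLM and 350 ± 109 CPM in WT_BLM (SD, n = 4 each). A2m, a broad protease inhibitor of low level here, had −2.79 (SE 0.35, adjusted p = 0.000353), Timp3 −0.77 (adjusted p = 0.00465) and Timp2 −0.60 (adjusted p = 0.00300), while Cst3 had −0.07 (adjusted p = 0.717). Of 10 receptor genes for elastin and fibrillin 8 were lower. Itgb1 (−0.44, edgeR adjusted p = 0.00239), Itgb5 (−0.73, adjusted p = 0.000467) and Ctsa, part of the elastin receptor complex (−0.65, adjusted p = 0.00606), fell, and Itga8 was the 1 that rose (1.20, SE 0.15, adjusted p = 0.000382). Itgb6 was not called (−0.33, adjusted p = 0.228).

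**Figure D5:**
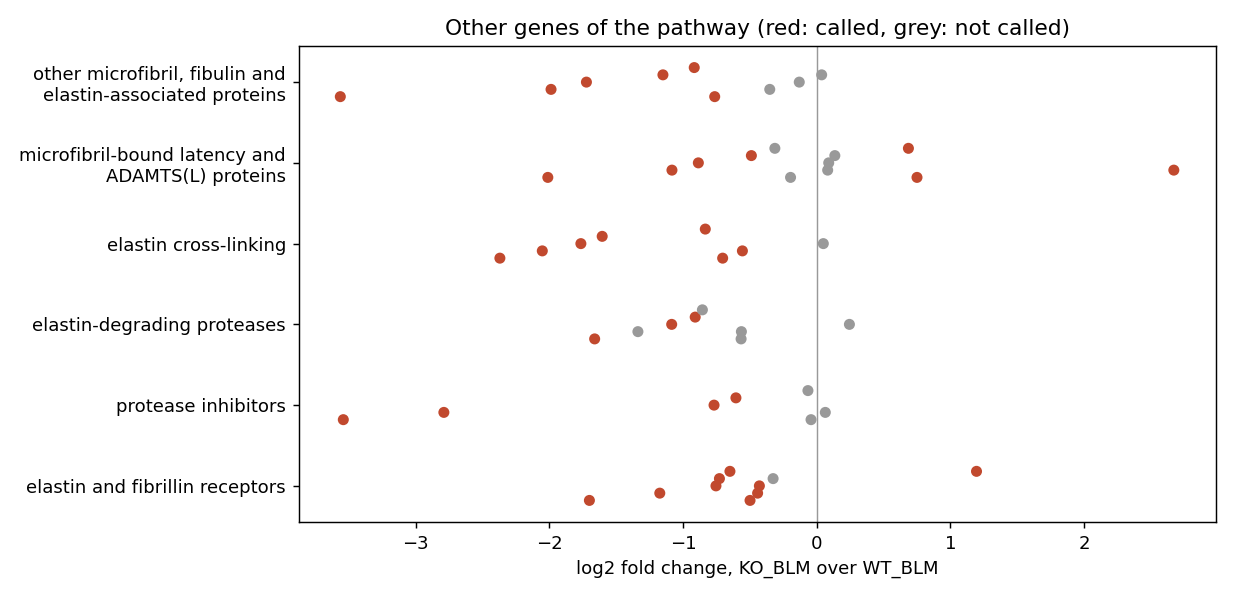
Log2 fold change of KO_BLM over WT_BLM of the 54 tested genes of the 6 pathway lists (points, spread vertically for legibility), with called genes in red and others in grey. Points lie mostly left of 0, and the list of microfibril-bound latency and ADAMTS(L) proteins has 3 called genes right of it.

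Markers of some of the cells that make elastic fibres differed as well. The counts below stand beside 20.8% lower and 20.7% higher, together 41.5%, among all tested genes. In bulk lung, fewer cells of a type and less RNA per cell cannot be told apart. Of 10 markers of activated fibroblasts, 10 were lower, with a summed level of 703 to 2277 CPM in KO_BLM and 6095 to 6490 CPM in WT_BLM. Spp1, osteopontin, which macrophages also make, carried most of that sum in WT_BLM. It had 120, 182, 1562 and 1703 CPM in KO_BLM replicates 1 to 4, against 4316, 4105, 4744 and 4630 CPM in WT_BLM replicates 1 to 4, so KO_BLM replicates 1 and 2 stood apart from 3 and 4. Without Spp1, a sum added after seeing the data, the other 9 markers summed to 574 to 604 CPM in KO_BLM and 1644 to 2012 CPM in WT_BLM. Of 10 markers of alveolar fibroblasts 9 were higher and 0 lower, with a sum of 2811 to 4354 CPM in KO_BLM and 1181 to 1663 CPM in WT_BLM. Adventitial fibroblast markers went both ways, 4 of 10 higher and 3 lower, with a sum of 3334 to 4916 CPM in KO_BLM and 2215 to 2672 CPM in WT_BLM. Gsn, a higher one, carried most of that sum in KO_BLM, at 3260 ± 828 CPM, against 1301 ± 216 CPM in WT_BLM (SD). The next most abundant, Ly6a, had 593 ± 30.4 CPM in KO_BLM and 674 ± 76.2 CPM in WT_BLM (SD) and was not called. The higher sum therefore gives no direction for the list as a whole. Smooth muscle markers had 4 of 10 lower and 2 higher, with a sum of 630 to 848 CPM in KO_BLM and 1271 to 1430 CPM in WT_BLM. Acta2, Tagln and Des, all lower, carried most of that sum, with Acta2 at 209 ± 20.4 CPM in KO_BLM and 495 ± 18.8 CPM in WT_BLM (SD). Myh11 (edgeR adjusted p = 0.587), Cnn1, Smtn and Synpo2 were not called, and Lmod1 and Hhip were higher. The lower sum therefore gives no direction for this list as a whole either. Of 8 pericyte markers 4 were lower and 1 higher, and the sum was 613 to 922 CPM in KO_BLM and 1023 to 1214 CPM in WT_BLM. Mesothelial markers had 3 of 8 higher and 1 lower (sum 477 to 654 CPM in KO_BLM and 413 to 642 CPM in WT_BLM), and endothelial markers 7 of 10 higher and 1 lower (sum 3031 to 4765 CPM in KO_BLM and 2792 to 3562 CPM in WT_BLM). The mesothelial sums overlapped between the groups, and so did the endothelial sums. No marker of these lists was at 0 in all libraries. The part of these cell types in the changes of Eln, Fbn1, Fbln2, Fbln1, Efemp1 and Mfap4 was not tested. Ltbp2 and Itga8 stand in a marker list and a pathway list, so their changes count in both. Postn stands in the activated fibroblast and the pericyte list, so its fall counts in both as well. It was the most abundant pericyte marker, at 305 ± 33.8 CPM in KO_BLM and 406 ± 59.6 CPM in WT_BLM (SD). The lower pericyte sum is thus partly the same result as in the activated fibroblast list.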

How the data were processed

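Lung RNA was made into stranded TruSeq mRNA libraries, per the labels' protocols. The deposited tables hold read counts (whole numbers) and FPKM values by gene symbol. The submitters' processing notes list DESeq, Cufflinks, HTSeq and Trimmomatic with no version or role, and the build mm10. Aligner, gene models and strand setting were not given in the sources used here. Deposited FPKM followed from the count, the library total and 1 length per gene for 100% of genes (relative tolerance 1e-06), so FPKM carries no separate measurement. PHT2 in a column name is an alias of SLC15A3, and such columns went to the knockout sample with that treatment and number. Columns of other samples numbered 0. Chi-square per degree of freedom between libraries of 1 group was 7.48 to 58.1, so none repeats another.

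Counts of all genes were fitted with edgeR 4.0.16 in R 4.3.3 (TMM factors, filterByExpr with minimum count 10 and minimum total 15, robust quasi-likelihood F test, Benjamini-Hochberg adjustment over 14746 tested genes at 0.05). The steps were tested on simulated data. SE is the absolute log2 change divided by the square root of the F statistic. The text names all members, the 3 most abundant genes of each pathway list, any gene needed to read a count of 5 or fewer, and the 3 genes nearest in profile. Fbn2 and Mmp12 fall outside that rule and were chosen after their values were seen. The members, lists, pairs and rule were chosen with earlier results of these data known. Alternatives were RLE factors, library totals, no filter and a stricter one, DESeq2 1.42.0, limma 3.58.1 on voom values and on log2(FPKM + 1) or log2(FPKM + 0.1), a replicate block, removal of the 20 most abundant genes, and omission of each library.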

Additional observations from a re-analysis of the deposited data

How the results depend on the processing

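All 9 calls among the 10 genes kept their direction in the 19 alternatives in which a gene was fitted, and their side of the threshold except Efemp2 in limma on unfiltered log2(FPKM + 1) values (log2 fold change −0.44, adjusted p = 0.054). Eln is itself among the 20 most abundant genes, so the fit without them gives it no value and calls 5 genes of the set lower. The 3 higher genes were called in all 19. Mfap2 changed sign with library totals alone (0.04996), in limma fits of log2(FPKM + 1), filtered (0.0518) or unfiltered (0.0518), and of log2(FPKM + 0.1) (0.0526), and ran from −0.128 to 0.0915 over the leave-one-out fits. The median log2 fold change of all tested genes was 0.00252 as reported and 0.0883 with library totals alone, so that scaling moved all genes upward. FPKM is scaled by the library total too. In limma on log2(FPKM + 1) the median was 0.0666 filtered and 0.0206 unfiltered, and on log2(FPKM + 0.1) it was 0.0748. The cause of the Mfap2 sign changes in these fits and in the leave-one-out fits was not tested. Genes called lower numbered 3061 as reported, and 2007 and 1997 in limma on filtered log2(FPKM + 1) and log2(FPKM + 0.1) values. Higher genes made up 50.0% of calls as reported, and 62.7% with library totals alone. In limma on FPKM they made up 61.8% to 63.2%. The replicate numbers share no stated animal, litter or day. Same-numbered libraries deviated together by r = −0.0649 to 0.139, and only replicate 1 matched its own number best. Such values from 4 libraries a group cannot exclude a pairing, and none was assumed in the main fit. With the replicate block 5702 genes were called, and 6 lower and 3 higher in the set.

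For the ratios, the replicate block (sign flips over 4 pairs, smallest possible p 0.125) left log2 differences of 0.679 for Mfap4/Mfap2, 2.48 for Fbln5/Fbln2 and −2.06 for Efemp2/Efemp1 short of the threshold, as it had to. Leaving out a library (smallest possible p 0.0571) gave 0.576 to 0.744 for Mfap4/Mfap2, 2.40 to 2.56 for Fbln5/Fbln2, −2.19 to −1.98 for Efemp2/Efemp1, −0.692 to −0.421 for Mfap5/Mfap2, and −0.402 to 0.0389 for Eln/Fbn1, which turned without WT_BLM replicate 1 or 4. The lowest count of any of the 10 genes in a library was 346 (Fbln2, KO_BLM). In alternatives chosen after seeing the data, the log2 ratio of mean summed FPKM of the genes other than Eln, KO_BLM over WT_BLM, was 0.312 with Mfap4 and −0.227 without it, and that of the summed activated fibroblast markers was −2.09 with Spp1 and −1.66 without it.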

Other observations

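Some marker lists of cell types that are not known as main makers of elastic fibres also differed between the groups. Among all tested genes, 20.8% were lower and 20.7% higher. Of 10 macrophage markers 8 were lower and 0 higher, with a summed level of 1080 to 1537 CPM in KO_BLM and 2205 to 4015 CPM in WT_BLM. All 8 lymphocyte markers were higher (181 to 287 CPM in KO_BLM and 23.8 to 79.8 CPM in WT_BLM). Of 10 type 2 alveolar cell markers 9 were higher, and of 8 airway markers 7, with an airway sum of 11800 to 23300 CPM in KO_BLM and 3068 to 9483 CPM in WT_BLM. Type 1 alveolar markers had 3 of 10 higher, with sums that overlapped (8913 to 9520 CPM in KO_BLM and 7380 to 9830 CPM in WT_BLM). Of 8 cartilage markers 3 were tested and 1, Hapln1, was lower, with a sum of 0.992 to 3.02 CPM in KO_BLM and 4.12 to 4.95 CPM in WT_BLM. In the type 1 alveolar and cartilage lists the share called in either direction was below that of all tested genes, 41.5%.

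The length by which the authors divided each count bears on the order of levels per length. For Eln it was 3974 bases, against 8098 bases in the union of its annotated GENCODE M21 exons, and for Mfap4 1630 bases, against 1922 bases. For Mfap5 it was 1505 bases, against 3589 bases, and for Fbn1 10126 bases, against 12128 bases. For Efemp2 it was 2515 bases, against 3788 bases, and for Efemp1 2190 bases, against 2037 bases. With exon-union lengths Mfap4 still led Eln in all KO_BLM libraries and Eln led Mfap4 in all WT_BLM libraries, with a Mfap4/Eln ratio of 0.956 in WT_BLM replicate 2, while Mfap5 moved to place 7 in KO_BLM and 6 in WT_BLM. The ratio of a gene between groups does not depend on this length, but its place among the 10 genes does.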
